A study of Mus musculus with 6 samples.

Results

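The genes described here encode the proteins that neutrophils store in their granules or carry in bulk in their cytosol: S100a8, S100a9, Ngp, Camp, Ltf, Prtn3, Elane, Mpo, Mmp8 and Mmp9. These 10 genes were taken by name from the array annotation, out of 15045 genes measured in liver, and all 10 were measured. Elane was read from 5 probe sets annotated with its older symbol Ela2, which has also been used for the pancreatic elastase Cela2a, and the annotation does not settle which of these genes the 5 probe sets detect. Livers came from male mice 6 to 8 weeks old, in a control group labelled wild type (3 mice) and in a group labelled Dhx32-/- (3 mice), homozygous for a mutation of the DEAH-box RNA helicase gene Dhx32. The labels name no treatment, strain background or type of mutation, and the samples were whole snap-frozen liver tissue. The labels only number the replicates, and these are taken here as separate mice. Each was measured on 1 exon-level array, which carries several probe sets per gene, and a probe set's value is a log2 signal. Values for a gene below are means over its probe sets that had a group mean log2 signal of at least 3.

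Neutrophils are made in the bone marrow, where their granule proteins are transcribed in a set order as the cells mature: those of the azurophil granules (Mpo, Elane, Prtn3) in early precursors, those of the specific granules (Ltf, Camp, Ngp, Mmp8) later, and gelatinase (Mmp9) later still. S100a8 and S100a9 pair as calprotectin, which makes up much of the cytosolic protein of the mature cell. Adult liver holds few neutrophils at rest and receives them from the blood during inflammation. In RNA from whole liver, a different number of such cells and a different amount of RNA per cell cannot be told apart.

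Array medians ran from 6.73 to 6.95, and the number of arrays, 3 per group, sets the precision. Over all probe sets the array of mutant replicate 1 was least like the rest, with correlations of 0.935 to 0.940 where other pairs reached 0.973, so the members' differences and the counts of the gene lists are also given without it. Dhx32, the mutated gene, read 8.28, 8.85 and 8.62 in the 3 controls and 6.35, 6.60 and 7.04 in the 3 mutants, in the direction of the labels. Its difference was -1.92 (SE 0.23, unadjusted p = 2.43e-05, adjusted p = 0.183 in limma over all genes). The mutated gene itself thus did not reach an adjusted p under 0.05, the threshold used below. The liver identity of the samples showed in albumin (Alb), at 13.6 to 14.1 on every array.

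None of the 10 granule genes differed between the groups past the threshold. In limma, with Benjamini-Hochberg adjustment over all genes, 0 of the 10 had an adjusted p under 0.05, and the smallest was 0.943. Over all genes 0.00665% were called. At an unadjusted p under 0.05 there were 2, Prtn3 and Ngp, both higher in mutants, where 2.01% of all genes were higher at that level. This count was 0 with the median over probe sets in place of the mean, and 1 (Prtn3) without mutant replicate 1 or without control replicate 1. In 2 settings another gene took the place of Ngp. Without control replicate 2 it was Camp, lower in mutants (unadjusted p = 0.0354 in limma, a level that 323 of 15053 genes reached). With a signal minimum of 5, where Ngp was not tested, it was Mmp8 (unadjusted p = 0.0157 in limma, a level that 627 of 13944 genes reached). The groups did not overlap, with mutants higher, in 3 of the 10 (Ngp, Ltf and Prtn3, beside 5.15% of all genes). With mutants lower this held in 0 (4.32% of all genes). The means of Ngp and Ltf include probe sets that met the signal minimum through the mutants only and so had to be higher there. These were 4906696 of Ngp and 4417303, 4854343 and 5208399 of Ltf, so both separations are not independent of that minimum. The mean was higher in mutants in 8 of the 10 and lower in Camp and Mpo, where 47.5% of all genes were higher. The median difference was 0.34 on the log2 scale beside -0.01 over all genes. Without mutant replicate 1 the median difference was 0.08 and 6 of the 10 were higher.

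Most of that difference lay in mutant replicate 1. It had the highest value of the 6 arrays in 7 of the 10 genes, whereas it was highest in 20.6% of all genes and lowest in 32.8%. S100a8, Mmp8, Prtn3 and S100a9 stood at least 1 log2 unit above the mean of the other 5 arrays there, a position that 1.51% of all genes had. Averaged over the 10 genes, the values relative to the control mean were 0.80, 0.21 and 0.02 for mutant replicates 1, 2 and 3, and -0.10 to 0.11 for the controls.

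**Figure D1:**
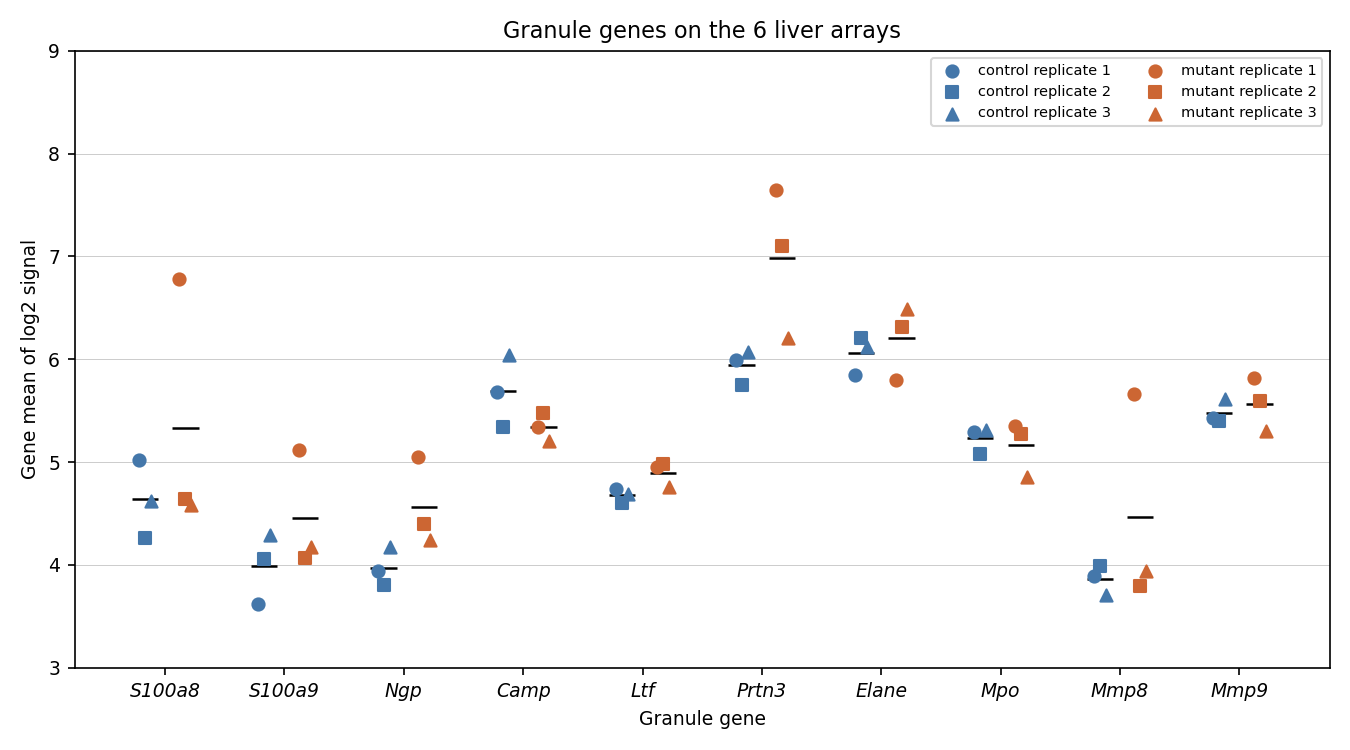
Gene means of log2 signal (vertical axis) for the 10 granule genes on each array, controls in blue and mutants in orange, with the replicate shown by the marker shape and a bar at each group mean. Mutant replicate 1 (orange circles) is far above the other 5 arrays in S100a8 and Mmp8, mutant replicates 1 and 2 are both above the controls in Prtn3, and no such separation shows in Elane, Mpo or Camp. Levels of different genes rest on different probes and are not comparable.

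The calprotectin genes were high in a single mutant. S100a8 read 5.02, 4.27 and 4.62 in controls and 6.78, 4.64 and 4.58 in mutants. Mutant replicates 2 and 3 thus lay inside the control range, and mutant replicate 1 was 4.43-fold above the control mean. The difference between the groups was 0.70 (SE 0.55, adjusted p = 0.943 in limma), and -0.22 in the fit without mutant replicate 1. That fit applied the signal minimum anew, and probe set 5272233 then dropped out, so -0.22 reflects a changed set of probe sets as well. With the probe sets unchanged, mutant replicates 2 and 3 lay at 0.006 and -0.06 relative to the control mean. The difference was 0.28 when only probe sets with a group mean of at least 5 entered, 0.39 with array weights, and up to 1.08 without mutant replicate 3. S100a9 read 3.62, 4.06 and 4.30 in controls and 5.11, 4.07 and 4.18 in mutants, with the same array highest and the other mutants again within the controls. Its difference was 0.46 (SE 0.30) with all arrays, 0.13 without mutant replicate 1, 0.27 without control replicate 1 and 0.17 with array weights.

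Within S100a8 the probe sets did not move alike. Probe set 5272233 read 2.67, 1.94 and 2.13 in controls and 6.35, 3.12 and 2.52 in mutants, and probe set 5146869 went up to 6.84 in mutant replicate 1 from a control range of 3.42 to 4.20. The first of these reached the signal minimum only through the mutant mean (3.997, against 2.25 in controls), so its difference is partly set by that minimum. In contrast, probe set 4866632 read 7.28 in mutant replicate 1, inside the control range of 7.08 to 7.49. In S100a9 the probe set with the largest difference, 4549285, read 5.002, 4.93 and 4.65 in controls and 7.41, 5.41 and 5.47 in mutants, so that here all 3 mutants lay above the controls. Probe set 5543535 of the same gene had its lowest value, 2.60, in mutant replicate 2 and read 3.19 in mutant replicate 1, against 2.95 to 4.22 in controls.

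Among the granule serine proteases, Prtn3 and Elane gave different results. Prtn3 encodes proteinase 3 and read 5.99, 5.75 and 6.07 in controls and 7.65, 7.10 and 6.21 in mutants. All 3 mutants were above all controls, mutant replicate 3 by little. Its difference, the largest of the 10 as means over probe sets, was 1.05 (SE 0.33) or 2.06-fold, with an unadjusted p = 0.0128 and an adjusted p = 0.943 in limma. Without mutant replicate 1 the difference was 0.71, and without mutant replicate 3 it was 1.43. With the median over probe sets it was 0.61 (unadjusted p = 0.0676, adjusted p = 0.975 in limma), below the values of S100a8 (0.64) and Mmp8 (0.63) by that summary. Elane, the gene of neutrophil elastase, read 5.85, 6.21 and 6.12 in controls and 5.80, 6.32 and 6.49 in mutants. Here mutant replicate 1 was the lowest array, and the difference was 0.14 (SE 0.21). The difference was 0.34 without mutant replicate 1, 0.04 without control replicate 1 and -0.0019 without mutant replicate 3, and 0.27 with the median over probe sets.

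The Prtn3 difference came from part of its probe sets. Probe set 4854024 read 4.22, 3.997 and 4.02 in controls and 8.57, 7.66 and 3.65 in mutants, which puts mutant replicates 1 and 2 far above the controls and mutant replicate 3 below them. Probe set 5112439 read 7.85, 7.58 and 7.70 in controls and 10.2, 9.49 and 8.15 in mutants, with no overlap. Probe set 4502957 read 7.26, 6.68 and 6.89 in controls and 8.91, 8.38 and 7.18 in mutants. Probe set 4932940 read 4.06, 4.94 and 4.93 in controls and 7.21, 5.89 and 5.33 in mutants. In all of these the order among the mutants was the same, with replicate 1 highest and replicate 3 lowest. The other 3 probe sets of the gene had smaller differences, and in 4937925 mutant replicate 1 (4.03) lay within the control range of 3.82 to 5.47.

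Mpo, the gene of the peroxidase that makes hypochlorous acid, did not separate the groups. It read 5.30, 5.08 and 5.31 in controls and 5.35, 5.27 and 4.86 in mutants, a difference of -0.07 (SE 0.18). Its sign turned with a signal minimum of 5 (0.04), with the median over probe sets in place of the mean (0.11) and without mutant replicate 3 (0.08), and it was -0.16 without mutant replicate 1. Of its 14 kept probe sets 5 were higher and 9 lower in mutants. Ctsg, the gene of cathepsin G, which shares the azurophil granule, read 4.87, 4.35 and 4.44 in controls and 4.59, 4.61 and 4.22 in mutants, with overlapping groups.

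The specific granule genes were uneven. Ngp encodes neutrophilic granule protein, a relative of the cathelicidins and cystatins, and read 3.94, 3.81 and 4.17 in controls and 5.05, 4.39 and 4.25 in mutants. The groups did not overlap, although mutant replicate 3 exceeded the highest control only slightly. The difference was 0.59 (SE 0.23, unadjusted p = 0.0327, adjusted p = 0.943 in limma), and 0.35 without mutant replicate 1. Its 4 kept probe sets were all higher in mutants, but in 0 of them did the groups separate. Probe set 4906696 (2.96 in controls and 3.50 in mutants) reached the signal minimum only through the mutant mean, so it had to be higher. The brightest, 4394992, differed by 0.0091. Camp, the precursor of the antimicrobial cathelicidin peptide, went the other way, with 5.69, 5.34 and 6.04 in controls and 5.34, 5.48 and 5.20 in mutants. These ranges overlap, and the difference of -0.35 (SE 0.20) was -0.35 without mutant replicate 1 as well. It depended more on the controls, at -0.17 without control replicate 3 and -0.52 without control replicate 2.

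Ltf, the gene of the iron-binding lactoferrin, had a small difference. It read 4.74, 4.60 and 4.69 in controls and 4.95, 4.98 and 4.76 in mutants, with no overlap and mutant replicate 2 highest. The difference was 0.22 (SE 0.14; adjusted p = 0.943 in limma) and 0.19 without mutant replicate 1, and it was -0.07 when only probe sets with a group mean of at least 5 entered. Probe set 4854343 of Ltf read 2.41, 3.20 and 3.11 in controls and 5.75, 3.41 and 3.85 in mutants. It reached the signal minimum only through the mutant mean, as did 4417303 (2.94 in controls and 3.38 in mutants) and 5208399 (2.22 and 3.19). All of these had to be higher in mutants, and they enter the Ltf mean, its difference and its separation. In contrast, probe set 4999180 was lowest in mutant replicate 1, at 4.88, against 6.38 to 6.54 in controls.

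The collagenase gene Mmp8 resembled S100a8 in its values by array. It read 3.89, 3.99 and 3.71 in controls and 5.66, 3.79 and 3.94 in mutants. Mutant replicate 1 was 3.48-fold above the control mean and the other mutants lay within the controls. The difference was 0.60 (SE 0.44; adjusted p = 0.943 in limma), and 0.04 without mutant replicate 1. It was 0.24 with array weights and 0.93 without mutant replicate 2. In 9 of its 11 kept probe sets the highest array was mutant replicate 1. Probe set 4701408 read 7.09 there and 2.87 to 4.08 in controls, with mutant replicates 2 and 3 within the control range. Other probe sets did not single out that array. Probe set 4993042, with the smallest p of the gene, read 4.23, 3.84 and 3.20 in controls and 6.32, 5.29 and 4.33 in mutants, and 4810344 read 6.42, 6.88 and 6.13 in controls and 6.91, 7.23 and 6.92 in mutants. In both of these all 3 mutants lay above all controls. Probe set 4806678 read 6.04 in mutant replicate 1 and 1.36 to 2.43 on the other 5 arrays, and it was kept only because that array raised the mutant mean to 3.36. Probe set 5062470 (2.86 in controls and 3.26 in mutants) likewise reached the signal minimum only through the mutant mean, with 5.09 in mutant replicate 1. Both had to be higher in mutants and are among the 9, and both dropped out of the fit without mutant replicate 1. With the minimum set on the mean of all 6 arrays the difference of Mmp8 was 0.51, that of Ltf 0.17 and that of S100a8 0.70. That minimum still kept 5062470 of Mmp8 and 5272233 of S100a8, whose means over all arrays include the high mutant replicate 1. The probe sets of S100a8 were thus the same, so its value could not change.

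Mmp9, the gelatinase gene, read 5.43, 5.40 and 5.61 in controls and 5.82, 5.59 and 5.30 in mutants. Mutant replicate 1 was again the highest array, but by far less, and the difference of 0.09 (SE 0.18) was -0.04 without it and -0.06 with the median over probe sets. Of its 15 probe sets 8 were higher and 7 lower in mutants. Probe set 4527389 read 3.31, 3.39 and 4.72 in controls and 5.74, 4.65 and 4.42 in mutants, while probe set 5135412 read 7.50, 7.75 and 7.78 in controls and 7.32, 7.28 and 7.41 in mutants, so that the direction depended on the probe set.

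Of 88 probe sets listed for the 10 genes 83 were kept, and no single one passed. Just inside the signal minimum was probe set 4805795 of Mmp8 (group means 3.01 and 3.15), and just outside was 4359335 of Ngp (2.48 and 2.74). Of the 88, 55 were higher and 33 lower in mutants, with a median difference of 0.22 beside -0.02 over all probe sets listed. The minimum was met by either group's mean, and 7 of the 83 met it through the mutants only and 1 through the controls only, so these 8 had to differ in that direction. Of the 75 that met it in both groups, 46 were higher and 29 lower, with a median of 0.15 beside -0.03 over all such probe sets. In limma 0 of the 83 had an adjusted p under 0.05, as did 0% of the 191663 tested. At an unadjusted p under 0.05 there were 10, all higher, where 1.9% of all probe sets were higher at that level; 2 of the 10 (5208399 and 4854343, both of Ltf) were among the 7. The groups did not overlap with mutants higher in 10 of the 83 (4.01% of all probe sets), the same 2 of Ltf included, and with mutants lower in 3 (4.44% of all). These probe sets share the same mice and, within a gene, the same transcript, so they are not separate comparisons.

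Mutant replicate 1 was the highest array in 37 of the 83 probe sets, or 44.6%, and in 21.4% of all kept probe sets. It lay at least 1 log2 unit above the mean of the other 5 arrays in 24 of the 83 (28.9%, against 4.85% of all), and at least 1 below it in 2 (2.41%, against 11.7%). Among the 75 that met the signal minimum in both groups it was highest in 32 (42.7%) and at least 1 above in 20. Over all genes such probe sets were 97.2% of those kept, and their own shares are not given. S100a8, S100a9, Ngp, Prtn3 and Mmp8 held 18 of the 24. The 18 include 5272233 of S100a8 and 4806678 and 5062470 of Mmp8, which met the minimum through the mutants only.

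**Figure D2:**
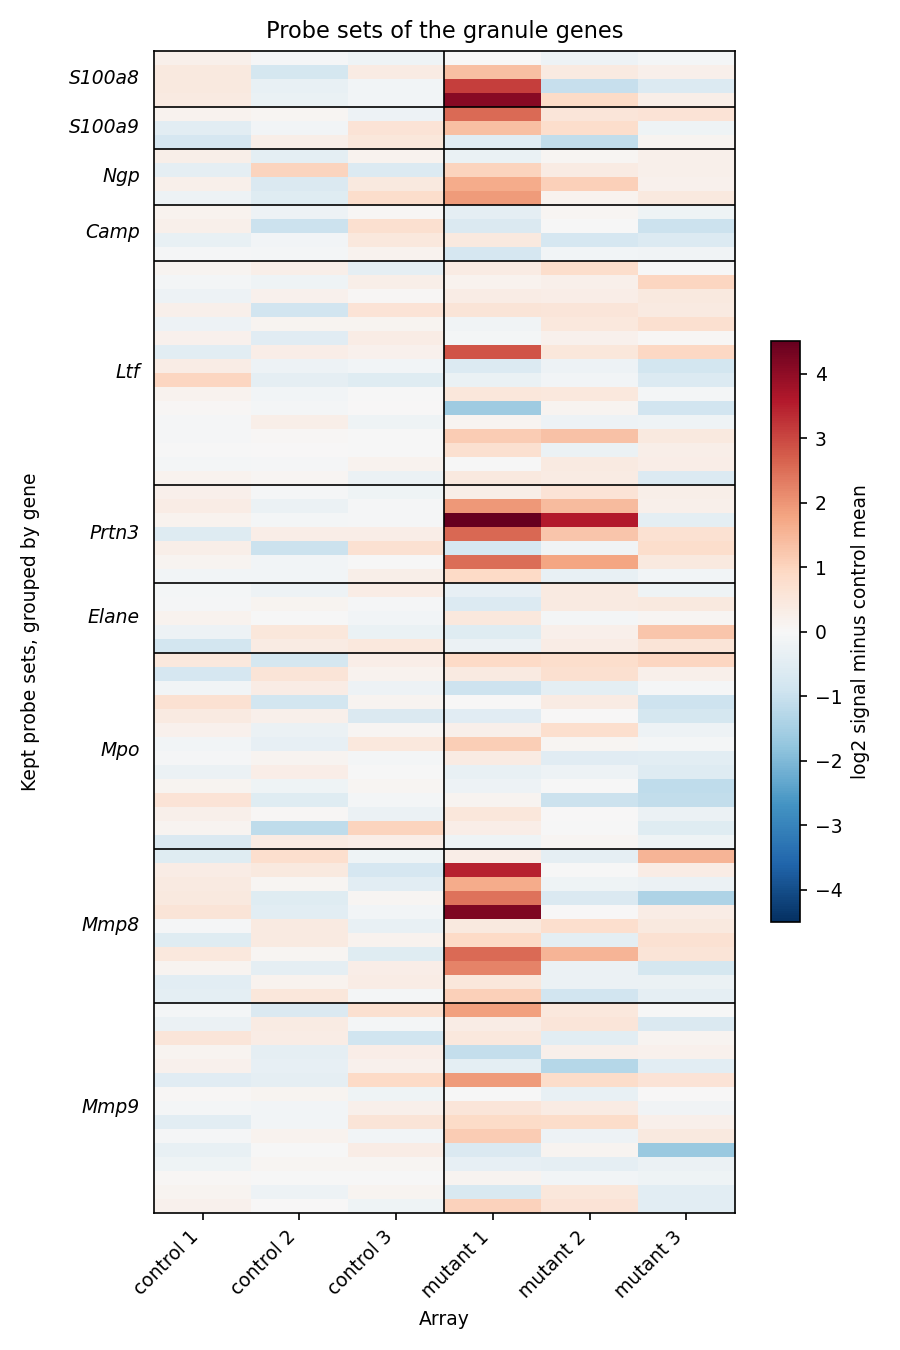
Log2 signal minus the control mean (colour) for the 83 kept probe sets in rows, grouped by gene, on the 6 arrays in columns. The dark red cells lie in the column of mutant replicate 1, in S100a8, Prtn3 and Mmp8 above all, and that of mutant replicate 2 is dark in Prtn3, while the rows of Elane, Mpo and Camp stay pale.

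The series also compares exons within transcripts, so the probe sets of each gene were tested for differences that the gene's mean does not share. In the diffSplice F-test of limma 0 of the 10 genes passed, where 0.21% of all genes were called. Ltf had the smallest p (unadjusted p = 0.0156, adjusted p = 0.850) and was the only member at an unadjusted p under 0.05, a level that 4% of all genes reached. Without mutant replicate 3, Prtn3 was called (adjusted p = 0.00139 in diffSplice), the array in which its probe set 4854024 read 3.65. The 0.21% belongs to the fit with all arrays, and the share of all genes called without this array is not given. At the gene level, 1356 genes had an unadjusted p under 0.05 in limma without this array, against 633 with all arrays.

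Several members are neighbours in the genome. Prtn3 and Elane lie side by side on chromosome 10, S100a8 and S100a9 lie side by side among measured genes on chromosome 3, and Camp, Ngp and Ltf are near each other on chromosome 9. The genes next to the members were added after the data were seen. Of 16 such neighbours 13 were higher and 3 lower in mutants, where 47.5% of all genes were higher and 8 of the 10 members. Their median difference was 0.11, beside 0.34 for the members. In limma 0 were called (2 of the 16 had groups that did not overlap, in which 9.47% of all genes fell). Cfd, the gene of complement factor D, follows Elane and read 6.39, 6.06 and 5.97 in controls and 6.24, 6.95 and 7.97 in mutants. It was highest in mutant replicate 3, where Prtn3 was lowest among the mutants. Ptbp1, on the other side of Prtn3, differed by 0.16 (SE 0.16).

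The stretches of 250 bases before the start sites of Prtn3, Elane, S100a8 and Mmp8 are shown because the first pair are adjacent genes with unlike values and the other two had the highest folds in mutant replicate 1. They are from RefSeq, build GRCm38.p6, 5′ to 3′, and 9 of the 10 genes had an entry (all but Mmp9). Capitals mark matches, on either strand, to a C/EBP core (TTNCNNAA), the core GAGGAA read by the ETS factor PU.1, the RUNX core TGTGGT or the TATA box core TATAAA.
Prtn3 (chr10:79879417-79879666, + strand): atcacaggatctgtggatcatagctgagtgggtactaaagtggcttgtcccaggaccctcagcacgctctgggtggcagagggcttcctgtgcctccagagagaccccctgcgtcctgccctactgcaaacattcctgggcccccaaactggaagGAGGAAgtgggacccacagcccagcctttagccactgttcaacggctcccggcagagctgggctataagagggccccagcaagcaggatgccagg
Elane (chr10:79886062-79886311, + strand): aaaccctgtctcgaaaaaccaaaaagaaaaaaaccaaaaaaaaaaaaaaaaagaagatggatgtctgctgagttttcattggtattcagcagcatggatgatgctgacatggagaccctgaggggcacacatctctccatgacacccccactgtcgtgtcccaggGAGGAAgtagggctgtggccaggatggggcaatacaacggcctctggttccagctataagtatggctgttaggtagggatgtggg
S100a8 (chr3:90668821-90669070, + strand): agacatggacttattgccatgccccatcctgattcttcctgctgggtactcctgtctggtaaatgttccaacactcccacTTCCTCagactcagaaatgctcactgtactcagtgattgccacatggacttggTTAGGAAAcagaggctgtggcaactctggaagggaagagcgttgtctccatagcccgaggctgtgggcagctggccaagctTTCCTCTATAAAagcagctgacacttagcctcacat
Mmp8 (chr9:7558179-7558428, + strand): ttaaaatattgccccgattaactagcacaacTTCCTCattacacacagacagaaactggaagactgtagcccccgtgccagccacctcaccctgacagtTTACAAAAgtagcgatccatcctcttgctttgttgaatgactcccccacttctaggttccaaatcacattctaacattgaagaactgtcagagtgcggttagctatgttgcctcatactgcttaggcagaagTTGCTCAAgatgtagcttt
Prtn3 and Elane each held 1 match, to GAGGAA, beginning at position -95 and -85 from the start site. S100a8 held GAGGAA at -170 and -36, directly before TATAAA at -30, and the C/EBP core at -117. Mmp8 held the C/EBP core at -151 and -19 and GAGGAA at -219. Over the 9 members with an entry, GAGGAA was in 6 and the C/EBP core in 5, where 23.3% and 36.8% of 32851 stretches of the same length held them. TGTGGT was in 1 (S100a9; 14% of all) and TATAAA in 1 (12.4% of all), and no matches overlapped. A match describes the letters and is not a measured binding site.

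**Figure D3:**
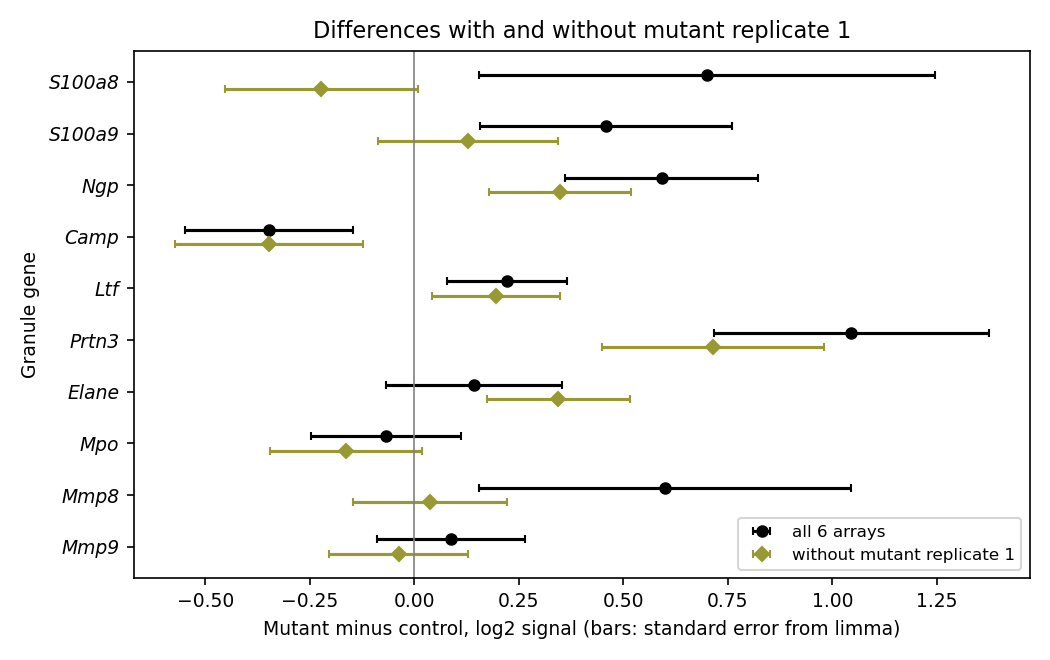
Mutant minus control difference of log2 signal (horizontal axis, bars are the standard error from limma) for each granule gene, with all 6 arrays in black and without mutant replicate 1 in olive. The values of S100a8, S100a9 and Mmp8 move close to or past 0 when that array is left out, whereas those of Prtn3 (1.05 and 0.71), Ngp and Ltf stay above 0 and that of Camp stays below. The signal minimum was applied anew without that array, which removed probe set 5272233 of S100a8 and 4806678 and 5062470 of Mmp8.

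Other neutrophil genes gave a mixed picture. Of 14 further granule and cytosolic proteins measured, 8 were higher and 6 lower, and 0 passed in limma over all genes. Without mutant replicate 1, 7 were higher and 7 lower. Lcn2, the siderophore-binding lipocalin of specific granules that hepatocytes also secrete, read 6.88, 7.11 and 7.93 in controls and 13.6, 11.2 and 10.1 in mutants, a difference of 4.32 (SE 0.76), and 3.35 without mutant replicate 1. Haptoglobin (Hp), likewise both a granule and a liver protein, differed by 0.92 (SE 0.29), and by 0.56 without that array. In these liver-secreted genes all 3 mutants lay above the controls, with replicate 1 highest, which is the order seen in Prtn3. Chil3, a chitinase-like protein of neutrophils and macrophages, read 4.53, 4.91 and 4.49 in controls and 6.32, 4.81 and 4.91 in mutants, which is the order of Mmp8 and S100a8 in that mutant replicate 1 alone was far from the controls.

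Surface receptors of neutrophils were also highest in mutant replicate 1, by less. Of 17 measured receptors and adhesion molecules 10 were higher and 7 lower in mutants, none passed, and in 12 mutant replicate 1 was the highest array. Without that array 6 were higher and 11 lower. Csf3r, the receptor for the growth factor G-CSF, read 5.14, 5.47 and 5.36 in controls and 6.08, 5.22 and 5.26 in mutants. Cxcr2, the chemokine receptor that draws neutrophils from blood, read 5.99, 5.71 and 5.73 in controls and 6.33, 5.42 and 5.59 in mutants. As a mean over the list, mutant replicate 1 lay 0.45 above the control mean, and the values of mutant replicates 2 and 3 were -0.15 and -0.10. The 5 measured subunits of the phagocyte NADPH oxidase gave 0.45, -0.29 and -0.15 for the 3 mutants, and the controls ran from -0.11 to 0.12; without mutant replicate 1 all 5 were lower in mutants.

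Factors that drive granule gene transcription were split in direction. Of 10 measured, 6 were higher and 4 lower (4 and 6 without mutant replicate 1), and none passed in limma. Cebpe, which is required for specific granule genes, read 6.92, 7.87 and 7.36 in controls and 6.49, 7.32 and 7.37 in mutants, and Gfi1 differed by 0.05 (SE 0.19). Cebpa, which is also a hepatocyte factor, read 10.4, 9.999 and 10.3 in controls and 9.54, 9.61 and 9.80 in mutants, lower in all 3, with an adjusted p = 0.943. Markers of marrow progenitors differed by a median of -0.08 over 7 genes (0.05 without mutant replicate 1), and their mean in the mutants (-0.08 to -0.001) was close to that in the controls (-0.03 to 0.04).

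Signals that recruit neutrophils were measured in 20 genes, of which 11 were higher and 9 lower (9 and 11 without mutant replicate 1) and 0 passed. Icam1, an adhesion molecule for neutrophils, read 7.14, 7.05 and 7.01 in controls and 8.66, 6.94 and 7.19 in mutants. Sele, the endothelial selectin, read 5.04, 5.27 and 5.29 in controls and 5.67, 5.36 and 5.49 in mutants, with no overlap. Cxcl2, a ligand of CXCR2, differed by 0.26 (SE 0.22), with overlapping groups.

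Genes of inhibitors that hold the granule proteases in check were measured in 13 cases, 6 higher and 7 lower with and without mutant replicate 1, with 0 called. Serpina3n, an acute phase serpin, differed by 0.62 (SE 0.21), and Timp1, an inhibitor of metalloproteinases, by -0.24 (SE 0.22); without mutant replicate 1 these were 0.40 and -0.44. Serpina1d, one of the near-identical genes of the elastase inhibitor alpha-1 antitrypsin, read 13.4, 13.6 and 13.8 in controls and 7.16, 13.2 and 6.90 in mutants. It rests on 2 probe sets and copies of this family share sequence, so this value is uncertain. Serpina1a differed by 0.13 (SE 0.16).

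Relatives of the members had small median differences, with exceptions among the S100 genes. Of 10 other S100 genes 6 were higher, with a median of 0.09 (7 and 0.15 without mutant replicate 1). S100a4 read 4.43, 4.53 and 4.15 in controls and 4.57, 5.39 and 5.002 in mutants, with no overlap. Its difference of 0.62 (SE 0.23; unadjusted p = 0.0253, adjusted p = 0.943 in limma) is as large as those of Ngp and Mmp8, and it was 0.83 without mutant replicate 1. S100a6 read 4.67, 4.92 and 3.98 in controls and 5.71, 4.96 and 4.68 in mutants, a difference of 0.59 (SE 0.32) and of 0.30 without mutant replicate 1. Of 16 other matrix metalloproteinases 10 were higher, also with a median of 0.09 (10 and 0.08 without mutant replicate 1). Mmp23 had the smallest p of these (0.31, SE 0.15). None of these genes passed in limma. In the mean over the other metalloproteinases mutant replicate 1 lay 0.08 above the controls, whereas in Mmp8 it lay 1.80 above them; that difference between Mmp8 and its relatives was not tested.

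Markers of other blood cells were set beside the members. Of 9 monocyte markers 8 were higher, none called, and mutant replicate 1 was highest in 7 (7 were higher without that array); the list lay at 0.82, -0.01 and 0.19 in the 3 mutants and at -0.11 to 0.13 in controls. Cd14, a receptor for endotoxin, read 5.65, 5.55 and 5.76 in controls and 7.43, 5.81 and 5.97 in mutants. Of 14 Kupffer cell and macrophage markers 6 were higher (2 without mutant replicate 1), with means of 0.34, -0.28 and -0.14 in the mutants and -0.26 to 0.14 in controls. Eosinophil, basophil and mast cell markers lay at 0.41, 0.25 and 0.01 (controls -0.12 to 0.22). Erythroid markers (0.02, 0.27 and 0.16) and those of platelets (0.10, 0.05 and 0.17) did not have mutant replicate 1 highest, nor did those of lymphocytes (-0.05, -0.11 and -0.05). Hepatocyte markers lay at 0.0004, -0.03 and 0.15. None of the markers in these lists was called in limma. The part that any of these cells has in the granule gene values was not tested.

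The liver's own acute phase genes separated mutant replicate 1 more widely than the lists above. Of 18 measured 17 were higher in mutants, with a median of 0.45, and mutant replicate 1 was highest in 17. Without that array 14 were higher, with a median of 0.19. Relative to the control mean their average was 1.64, 0.63 and 0.42 in the 3 mutants and -0.06 to 0.09 in the controls. Saa3, a serum amyloid A, read 7.28, 7.20 and 7.05 in controls and 12.9, 10.4 and 8.14 in mutants. None passed in limma (smallest adjusted p = 0.547, for Lcn2). Lcn2 and Hp stand in both this list and that of further granule proteins.

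**Figure D4:**
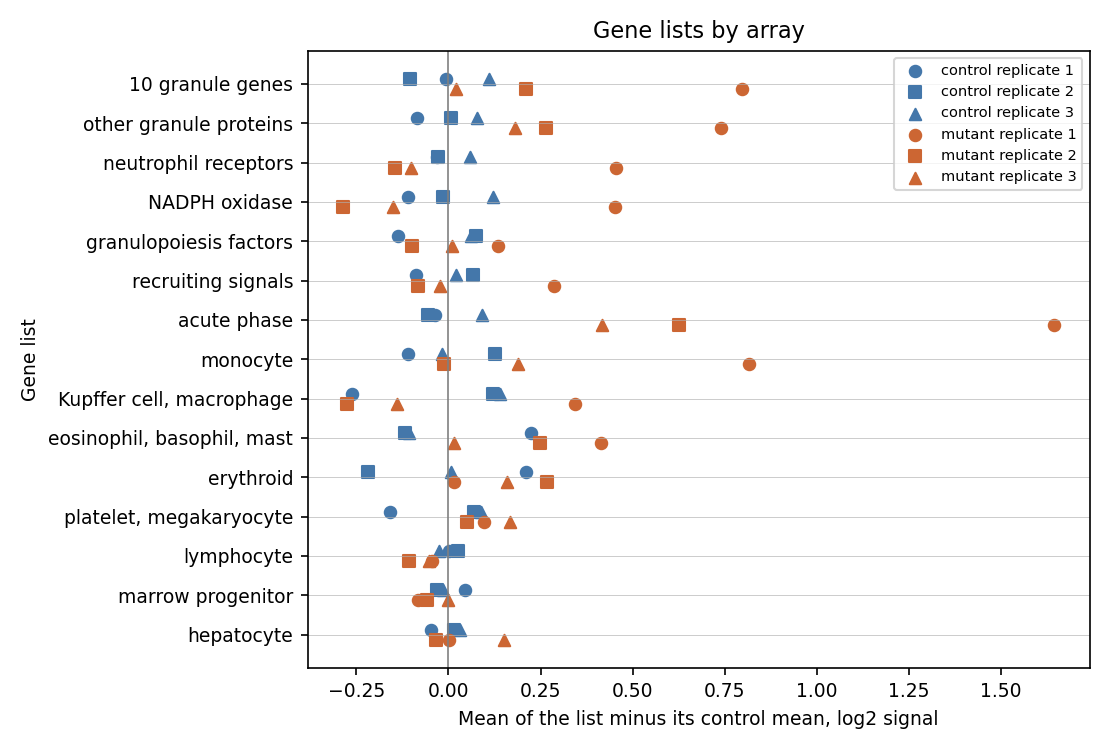
Mean log2 signal of each gene list minus its control mean (horizontal axis) on each array, controls in blue and mutants in orange, with the replicate shown by the marker shape. Mutant replicate 1 (orange circles) is to the right of all other arrays in the granule, receptor, oxidase, monocyte, Kupffer cell and acute phase lists. It is also rightmost for granulopoiesis factors (0.14), recruiting signals (0.29) and eosinophil, basophil and mast cell markers (0.41). It lies among the other arrays in the erythroid, platelet, lymphocyte and hepatocyte lists, and to their left in the marrow progenitor list (-0.08).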

How the data were processed

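The deposited table holds log2 signals, 1 per probe set and array, for 204531 probe sets on 6 arrays. The submitters' processing notes name Affymetrix Expression Console 1.1, RMA, Partek 6.4 and mm9 without a role. RMA draws arrays together and compresses dim differences. Symbols came from the platform annotation, updated through RefSeq: 185264 probe sets had 1 symbol and were used for genes. Probe sets with a group mean of 3 or more were kept (191663), and a gene is the mean of at least 2. Mutants were compared with controls in limma 3.58.1 (R 4.3.3), adjusted by Benjamini-Hochberg over every gene or probe set tested at a threshold of 0.05, and exon usage with diffSplice (at least 3 probe sets, 14310 genes). The steps were tested on simulated data. An exact permutation test cannot go below p = 0.1 here. Labels number the mice, but same-numbered arrays did not deviate together (r = 0.10, -0.11 and 0.18), so no pairing was used. Replicates are labelled as separate mice only by number, and p-values measure the spread between these samples. Members and lists were chosen with earlier results of these data known. All 10 members were named, with up to 4 genes of smallest p and fixed defining genes per list; motifs and neighbouring genes were chosen after values were seen. Alternatives were the signal minimum (also on the mean of all arrays, and applied anew without each array; the former, and the lists without mutant replicate 1, were added after seeing the data), normalization, moderation, array weights, gene summary, a replicate block and leaving out each array.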

Additional observations from a re-analysis of the deposited data

How the results depend on the processing

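No granule gene was called at the gene level under any alternative run: signal minimum (none, 5, or 3 on the mean of all 6 arrays, the last chosen after seeing the data), quantile normalization, median centring, eBayes with a trend or robust, array weights, the median over probe sets, the replicate block and leaving out each array. No probe set of theirs was called under these either, the median over probe sets aside, which does not apply to single probe sets. Over 158 refits of single members the smallest adjusted p was 0.473 in limma, and 150 kept their direction. The 150 include every refit with a trend, with robust eBayes or with the replicate block. Those settings leave each difference unchanged, so the direction could not turn there. The reversed ones, none of which was called, were Ltf (-0.067) and Mpo (0.0405) with a signal minimum of 5, which left 8 members, Mpo (0.105) and Mmp9 (-0.062) with the median over probe sets, and with an array left out S100a8 (-0.22 to 1.08), Mmp9 (-0.037 to 0.22), Elane (-0.0019 to 0.34) and Mpo (-0.16 to 0.084). The -0.22 of S100a8 comes from the fit without mutant replicate 1, in which its probe set 5272233 missed the signal minimum and dropped out. The median difference over the members, 0.34, was 0.09 with a signal minimum of 5 and ran from 0.08 (without mutant replicate 1) to 0.44. The count of members called for exon usage ran from 0 to 1 with an array left out. The call was Prtn3 without mutant replicate 3, a fit whose share of all genes called is not given. Over all genes 1 was called; this was 0 with no signal minimum, 2 with quantile normalization, median centring or array weights, 0 with the replicate block (893 at an unadjusted p under 0.05) and 0 to 3 with an array left out. With the replicate block 0 members were called. The cause of these moves was not tested. The precision is set by 3 arrays per group.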
